A study of Mus musculus with 22 samples.

Results

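The genes described here are 9 that carry hormone and transmitter signals into the heart: the adrenergic receptors Adrb1, Adra1a and Adra1b, the angiotensin receptor Agtr1a and the angiotensin converting enzyme Ace, the endothelin receptors Ednra and Ednrb, and the adenylyl cyclases Adcy5 and Adcy6. They were taken from a list of names, and all 9 were found among the 30735 genes of the expression tables. The study sequenced polyadenylated RNA of left ventricular tissue from FVB mice, labelled 3 to 5 months old, after a sham operation or after transverse aortic constriction (TAC), in which a suture narrows the aortic arch and raises the pressure against which the left ventricle pumps. Wild type mice (WT) gave 4 libraries 2 weeks after the sham operation, 4 at 2 weeks of TAC and 4 at 5 weeks of TAC. Mice labelled VCP TG, which carry a transgene for valosin-containing protein, an ATPase that extracts ubiquitin-tagged proteins from membranes and complexes, gave 4, 3 and 3 libraries. The sources used here do not give the promoter that drives the transgene. The 15 libraries of 2 weeks and the 7 of 5 weeks stand in separate tables, so an effect of time and one of the table cannot be told apart. Levels are TPM (the share of a transcript among all transcripts of a library), a unit scaled to transcript length that allows levels of different genes to be set side by side. The libraries are labelled as separate samples, and where nothing says that each came from its own animal, p-values measure only the spread between these libraries.

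Noradrenaline acts on the beta-1 receptor (Adrb1) of the cardiomyocyte, which couples through the stimulatory G protein to adenylyl cyclase. Adcy5 and Adcy6 are the main cyclases of the cardiomyocyte, and the cyclic AMP they make activates protein kinase A, which raises rate and force of contraction. The alpha-1 receptors (Adra1a, Adra1b), the angiotensin II type 1 receptor (Agtr1a in the mouse heart) and the endothelin receptors couple to Gq, phospholipase C beta and calcium release, a route tied to hypertrophic growth. Ace, mostly on endothelial cells, cuts angiotensin I to angiotensin II. Ednra stands mainly on myocytes and smooth muscle, and Ednrb also on endothelial cells, where it clears endothelin. In pressure overload and heart failure, loss of beta receptor signalling and use of the Gq receptors are textbook features.

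In GENCODE M21 annotation of GRCm38, each of the 9 is a protein-coding gene. Adrb1 lies at chr19:56722199-56733113 on the plus strand, Adra1a at chr14:66635251-66771168 on the plus strand, and Adra1b at chr11:43774606-43901210 on the minus strand. Agtr1a lies at chr13:30336441-30382867 and Ace at chr11:105967945-105989964, both on the plus strand. Ednra lies at chr8:77663031-77724464 and Ednrb at chr14:103814625-103844402, both on the minus strand. Adcy5 lies at chr16:35154877-35305738 on the plus strand and Adcy6 at chr15:98589973-98610076 on the minus strand. Ace overlaps the opposite-strand gene Gm11651, Adcy6 the opposite-strand gene Gm29331, Ednra the opposite-strand gene 4933431K23Rik, and Adcy5 the opposite-strand gene Gm25179. Adcy5 also overlaps Gm49702 and Agtr1a overlaps Gm48161, both on the same strand. The sources used here do not give whether strand was used when reads were assigned, so reads of these genes and their overlapping partners may not be told apart.

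Adcy5 and Ednrb are shown with the 250 bases before their start site, because they were among the 4 members with the largest wild type differences after TAC and the RefSeq promoter table (GRCm38.p6) holds them. The table holds 6 of the 9 members; Adra1a, Agtr1a and Adcy6 are not among its entries. Neither window holds a base of a GENCODE exon, and the Ednrb window lies within the span GENCODE gives the gene. The Adcy5 window is chr16:35154614-35154863 on the plus strand and the Ednrb window chr14:103843702-103843951 on the minus strand, both printed 5′ to 3′ with GGGCGG on either strand in capitals:
Adcy5: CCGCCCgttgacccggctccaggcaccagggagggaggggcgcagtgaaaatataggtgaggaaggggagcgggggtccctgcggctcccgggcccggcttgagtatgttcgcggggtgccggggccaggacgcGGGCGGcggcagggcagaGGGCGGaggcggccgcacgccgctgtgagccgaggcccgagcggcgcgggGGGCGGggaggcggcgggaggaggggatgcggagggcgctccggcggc
Ednrb: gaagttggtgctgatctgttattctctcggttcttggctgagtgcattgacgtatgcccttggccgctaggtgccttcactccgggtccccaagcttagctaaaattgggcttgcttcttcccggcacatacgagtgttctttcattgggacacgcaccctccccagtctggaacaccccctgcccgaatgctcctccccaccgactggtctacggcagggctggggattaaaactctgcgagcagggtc
The Adcy5 window has a G and C content of 78.0% and 4 matches to GGGCGG, the core of GC boxes. The Ednrb window has a content of 56.8% and no match. Over all 32851 promoters of the table, the median content of such a window was 52.4%, and 32.7% held GGGCGG on either strand. TATAAA (12.4% of promoters), CACGTG (6.02%), TGACGTCA (1.55%) and AGATAA (9.99%), each searched on both strands, had no match in either window.

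Facts about the libraries touch every result below. Mitochondrially encoded genes took 27.9 to 72.9% of the TPM of a library, with both extremes among the VCP TG sham hearts, so that a nuclear gene's TPM moves with that share. In wild type hearts the mitochondrial share was 46.0 to 56.8% after sham and 55.5 to 60.9% at 2 weeks of TAC. The share of nuclear protein-coding genes in the same hearts was 28.2 to 40.4% and 32.1 to 34.4%. In VCP TG sham replicate 4, the library with 72.9%, all 9 members were the lowest of their group. The mean level of 1657 olfactory and vomeronasal receptor genes also separated groups: it was 0.0525 to 0.0888 TPM in WT sham, 0.124 to 0.220 TPM in WT and 0.337 to 0.895 TPM in VCP TG at 2 weeks of TAC. Vcp itself, the gene of the transgene, stood at 45.7 to 82.6 TPM in WT sham and 73.5 to 186 TPM in VCP TG sham. At 2 weeks of TAC Vcp stood at 47.7 to 119 TPM in WT and 125 to 151 TPM in VCP TG. At 5 weeks of TAC Vcp stood at 47.7 to 123 TPM in WT and 39.1 to 118 TPM in VCP TG. After scaling to nuclear protein-coding genes, 5 libraries had a Vcp level that went against their label: those labelled VCP TG sham 1, WT 2 weeks TAC 1, WT 5 weeks TAC 2 and 3, and VCP TG 5 weeks TAC 3. With the median in place of the mean nuclear total as the scale, 6 libraries went against their label. Directions between genotypes below are drawn from the labels. Myl7, an atrial myosin light chain, was above 300 TPM in 4 libraries labelled left ventricle (VCP TG sham 3 and 4, WT 2 weeks TAC 1, VCP TG 2 weeks TAC 2). Cardiomyocyte markers mark heart muscle and do not tell its chambers apart: 8 such genes summed to 13659 to 28907 TPM over all libraries.

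Every member was expressed in the left ventricle at low to moderate level. In WT sham hearts the order by mean TPM was Adcy6 (22.1 ± 3.59, SD, n = 4), Ace (20.2 ± 7.19), Ednra (18.9 ± 2.81), Adra1a (13.8 ± 2.48), Ednrb (8.71 ± 3.45), Adcy5 (7.59 ± 1.32), Agtr1a (7.15 ± 2.77), Adra1b (5.95 ± 1.77) and Adrb1 (2.99 ± 1.98). In that order the libraries of neighbours overlapped at every step but that from Ednra to Adra1a. Adrb1 was the lowest of the 9 by mean in all 6 groups. At least 1 TPM was reached in 22 of 22 libraries by 8 members and in 21 by Adrb1. Across all libraries the highest value exceeded the lowest by 2.85-fold for Agtr1a and by 7.36-fold for Adcy6, the smallest and the largest of these ranges.

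**Figure D1:**
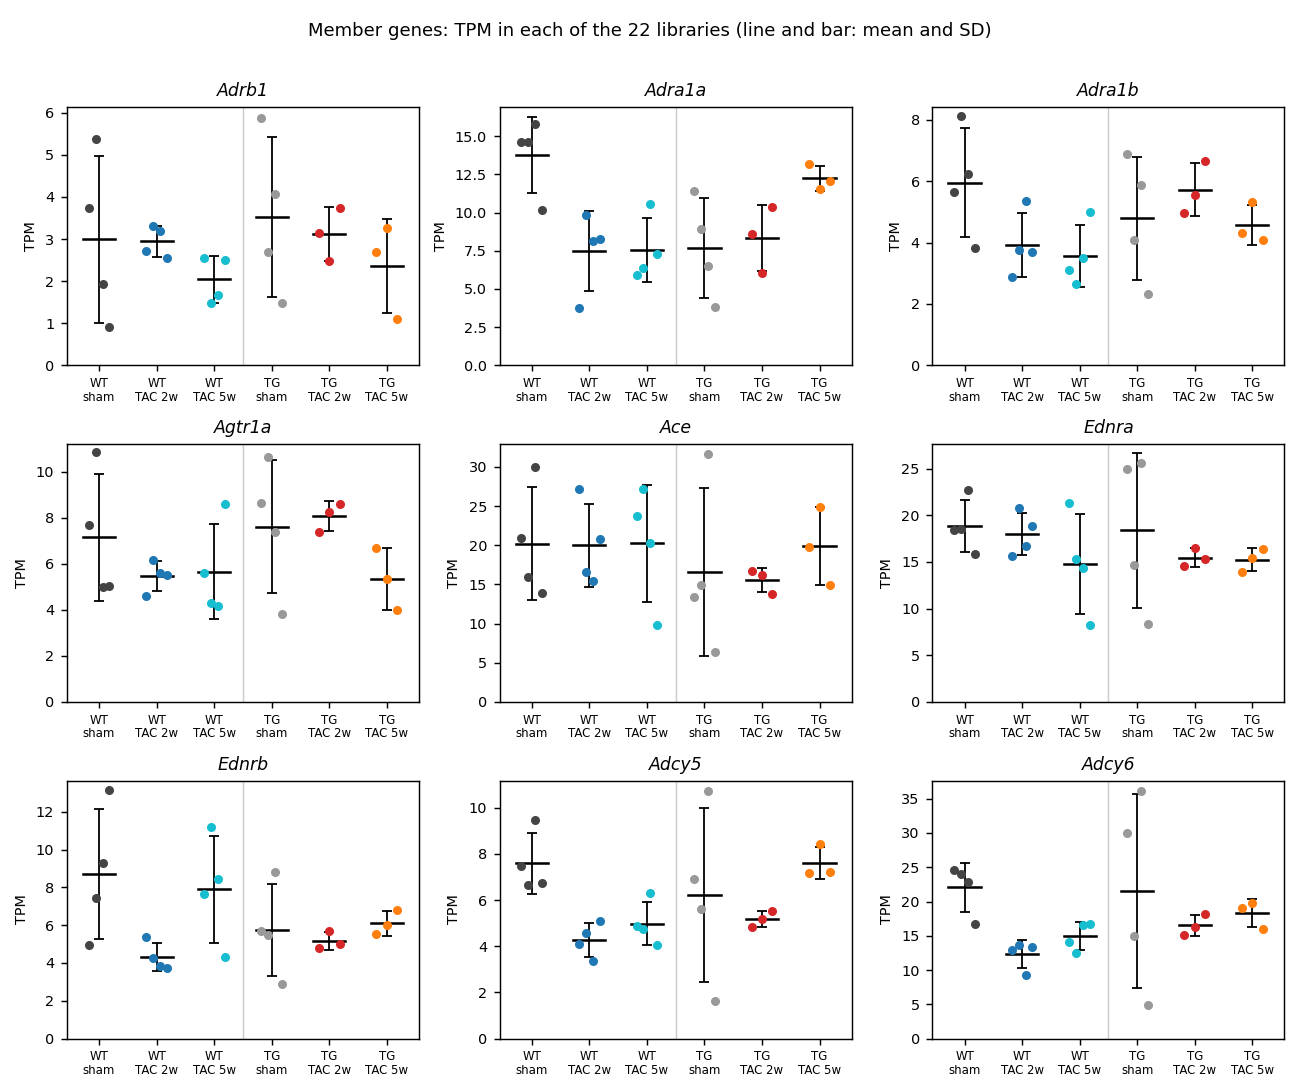
TPM of each member (vertical axis from 0, scales differ between panels) in each library, by group, with wild type (WT) groups on the left and VCP TG (TG) groups on the right of the grey line. Points are libraries, lines and bars are group mean and SD; the 5-week groups come from a separate table, and Adra1a, Adcy5 and Adcy6 sit lower in all 4 WT 2-week TAC libraries than in any WT sham library.

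The comparison of wild type hearts at 2 weeks of TAC with wild type sham hearts asks how the members stand under pressure load without the transgene. The alpha-1A receptor, the endothelin B receptor and both cyclases were at 49.4 to 56.5% of their sham mean, while Adrb1, Ace and Ednra were at 95.3 to 98.9%. None passed an adjusted p of 0.05 in the fit of all 4 groups of the 2-week table with limma on log2(TPM + 1). In the fit of the 2 wild type groups alone, Adcy5 and Adcy6 passed. Fold changes here are on the log2(TPM + 1) scale, which understates changes of low genes.

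Adra1a, the receptor that mediates much of the alpha-1 effect in cardiomyocytes, stood at 14.6, 14.6, 15.8 and 10.2 TPM in WT sham and at 3.73, 9.84, 8.13 and 8.28 TPM at 2 weeks of TAC. All 4 TAC libraries lay below the lowest sham library. The log2 difference was -0.85 ± 0.31 (SE, 4 against 4 libraries; limma adjusted p = 0.365). Without the atrial-rich WT TAC replicate 1, which held the lowest value, it was -0.59. With the 2 groups alone the adjusted p of limma was 0.0640. Adra1b, its partner with a wider tissue range, stood at 5.66, 8.12, 6.23 and 3.81 TPM in sham and 2.89, 3.75, 5.35 and 3.69 TPM after TAC, with 3 of 4 TAC libraries below the lowest sham library. Its log2 difference of -0.48 ± 0.28 did not pass (limma adjusted p = 0.505).

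For Adrb1 the group means were alike. Its sham libraries ran from 0.90 to 5.38 TPM (3.74, 5.38, 1.94 and 0.90) and its TAC libraries were packed between 2.55 and 3.31 TPM (2.72, 3.31, 3.19 and 2.55). The TAC values all lay inside the sham range, and the log2 difference was 0.12 ± 0.33 with a 95% interval of -0.57 to 0.82. The interval takes in a value as low as that of Adra1b. Adrb3, the beta-3 receptor, averaged 0.558 TPM in sham and 0.348 TPM after TAC.

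Of the angiotensin members, neither moved beyond the spread between libraries. Agtr1a, the receptor for angiotensin II, stood at 7.70, 10.9, 5.01 and 5.04 TPM in sham and 4.61, 6.19, 5.61 and 5.54 TPM after TAC, with overlapping groups (-0.27 ± 0.28, limma adjusted p = 0.713). Ace stood at 20.9, 15.9, 30.0 and 14.0 TPM in sham and 27.1, 16.6, 15.4 and 20.7 TPM after TAC, with the groups intermixed. The log2 difference of Ace was 0.01, with a 95% interval of -0.71 to 0.73.

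The endothelin receptors gave unlike values. Ednra stood at 18.4, 18.6, 22.7 and 15.9 TPM in sham and 15.6, 20.7, 16.7 and 18.9 TPM after TAC, and the groups overlapped almost fully (-0.06 ± 0.28, limma adjusted p = 0.947). Ednrb stood at 4.96, 7.42, 9.30 and 13.1 TPM in sham and at 5.35, 4.27, 3.86 and 3.71 TPM after TAC. Only the lowest sham library, at 4.96 TPM, fell within the TAC range. The Ednrb log2 difference was -0.81 ± 0.29 (limma adjusted p = 0.354). Its adjusted p was 0.0380 when the atrial-rich libraries were left out and 0.0354 with limma weights estimated per group. Of 10 endothelial marker genes, 9 had a value below 0 in the same comparison, with a list median of -0.43 against -0.13 over all genes tested, and Tie1 and Flt1, 2 of 10, passed as lower in the fit of the 2 groups, in which 6.31% of all genes did. The summed level of the 10 markers was 492 to 733 TPM in sham and 407 to 496 TPM after TAC, with no marker at 0; their part in the Ednrb difference was not tested. Macrophage markers summed to 97 to 157 TPM in sham and 117 to 316 TPM after TAC, and atrial markers to 41.5 to 161 TPM and 56.1 to 9656 TPM, and their part was not tested either. In whole tissue, fewer cells of a type and less RNA per cell cannot be told apart.

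Both cyclases were lower after TAC. Adcy6 stood at 24.5, 24.0, 22.9 and 16.8 TPM in sham and 12.9, 13.7, 9.31 and 13.4 TPM after TAC. Adcy5 stood at 7.48, 6.66, 9.49 and 6.73 TPM in sham and 4.11, 4.56, 3.36 and 5.11 TPM after TAC. For each gene the 4 TAC values were all under the lowest sham value. The log2 differences were -0.79 ± 0.40 for Adcy6 (limma adjusted p = 0.452) and -0.70 ± 0.33 for Adcy5 (limma adjusted p = 0.428) with the spread of all 4 groups. In the 2 wild type groups alone the same differences had standard errors of 0.18 and 0.17, and both passed (limma adjusted p = 0.0308 for Adcy6 and 0.0402 for Adcy5). The VCP TG sham group, which enters only the larger fit, had coefficients of variation of 66.0% for Adcy6 and 60.3% for Adcy5, against 16.3% and 17.4% in WT sham. The summed cardiomyocyte markers were 19544 to 25991 TPM in WT sham and 18349 to 21135 TPM after TAC. Of these 8 markers 6 had a value below 0, with a list median of -0.33 against -0.13 over all genes. Of the 8 markers 4 were lower without overlap, as were 13.7% of all genes. In the fit of the 2 groups 1 marker (Myh6) passed as lower, as did 6.31% of all genes. The part of these markers in the cyclase differences was not tested.

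These differences stood in a shifted background. In the 4-group fit 0% of the 15540 genes tested passed (0 genes), although 1773 had an unadjusted p under 0.05, and in the fit of the 2 groups 6.31% of 13709 genes passed as lower and 0.722% as higher. The 2 cyclases were the only members among these, 2 of 9. Adra1a, Adcy5 and Adcy6 were 3 of 9 members with every TAC library below every sham library, a pattern met by 13.7% of all genes, and no member had the opposite pattern, met by 2.48%. The median log2 difference was -0.48 over the members and -0.13 over all genes. Quantile normalization, which moved the median of all genes to -0.01, left the members' median at -0.27 and 6 of 9 below 0. With TPM scaled to nuclear protein-coding genes the members' median was -0.53 and that of all genes -0.06. At that scaling 7 of 9 members were below 0, none passing. With the receptor-gene level as a covariate the members' median was -0.57, that of all genes -0.30, and 8 of 9 members were below 0, none passing.

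**Figure D2:**
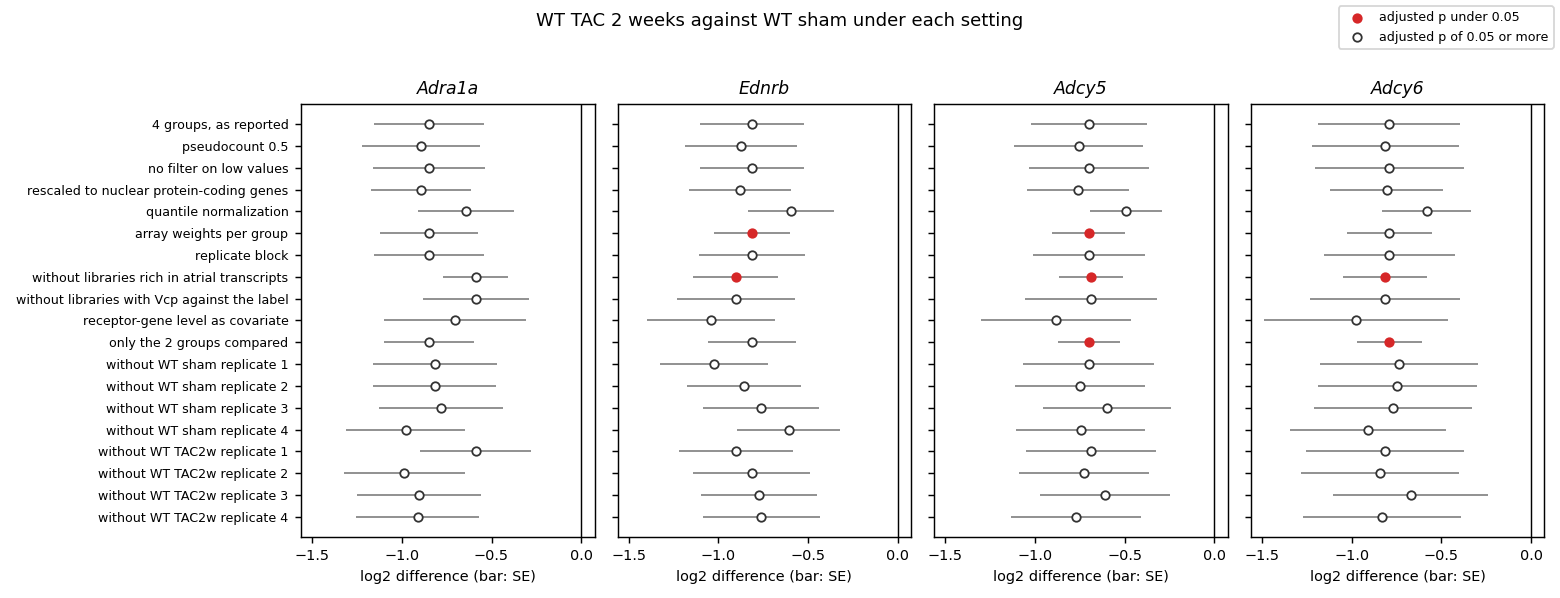
Log2 difference between WT 2 weeks of TAC and WT sham (horizontal axis, bars are SE) for the 4 members with the largest differences, under the fit as reported and each alternative (vertical axis). Every value lies below 0; red points mark a limma adjusted p under 0.05, reached by Ednrb, Adcy5 and Adcy6 in 2, 3 and 2 of 18 alternatives and by Adra1a in none.

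VCP TG sham hearts were compared with WT sham hearts to see the transgene without load. Adra1a was the member that differed most. It stood at 11.4, 8.93, 6.5 and 3.81 TPM in VCP TG sham, with 3 of 4 libraries below the lowest WT sham library of 10.2 TPM. The mean was 55.6% of that of WT sham and the log2 difference -0.84 ± 0.31 (unadjusted p = 0.0131; limma adjusted p = 1.00). VCP TG sham replicate 4, with the highest mitochondrial share, held the lowest value, and without it the log2 difference was -0.58, and without both atrial-rich VCP TG sham libraries (3 and 4) it was -0.40. The other members that leaned lower were Ednrb (-0.53 ± 0.29), Adcy5 (-0.43 ± 0.33), Ace (-0.41 ± 0.35), Adcy6 (-0.33 ± 0.40) and Adra1b (-0.30 ± 0.28), none past the threshold. Adcy6 shows the spread behind these values: it stood at 29.9, 15, 36.1 and 4.90 TPM in VCP TG sham, 2 libraries above and 2 below the whole WT sham range, and without replicate 4 its difference turned to 0.21. Without that library the values were -0.30 for Ednrb, -0.06 for Ace and for Adra1b and -0.0023 for Adcy5. The members' median then went from -0.33 to -0.0023, while that of all genes went from -0.01 to 0.20. Some other settings moved the members' median down. It was -0.47 without VCP TG sham replicate 1, whose Vcp level went against its label (all genes -0.07, 9 of 9 members below 0). Without replicate 3 it was -0.68 (all genes -0.17, 7 of 9 below 0). With TPM scaled to nuclear protein-coding genes it was -0.42 (all genes -0.03, 7 of 9 below 0). In the fit as reported, Adrb1, Agtr1a and Ednra had differences between -0.15 and 0.23. Over all genes tested, 0% passed, 0.605% had all VCP TG libraries above all WT libraries and 0.431% the reverse, and 0 of 9 members had either pattern. By unadjusted p, 616 genes (3.96%) were under 0.05.

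In VCP TG hearts, 2 weeks of TAC against sham gave differences of -0.12 to 0.28 for the 9 members, and no member had groups that did not overlap. Adra1a stood at 8.62, 6.03 and 10.4 TPM after TAC, inside the sham range of 3.81 to 11.4 TPM. Adcy5 stood at 4.84, 5.17 and 5.52 TPM and Adcy6 at 15.1, 16.2 and 18.2 TPM, each inside a sham range that ran from 1.62 to 10.7 TPM and from 4.90 to 36.1 TPM. Ednrb stood at 4.82, 5.69 and 5.00 TPM against 2.90 to 8.83 TPM. Adrb1, Agtr1a, Ace and Ednra lay between -0.12 and 0.14. The 95% intervals of the 9 differences had lower bounds between -0.95 (Adcy6) and -0.35 (Adra1b). These values rested on single libraries: without VCP TG sham replicate 4, Adcy6 went from -0.05 to -0.59 and Adcy5 from -0.04 to -0.46, with 8 of 9 members below 0 in place of 5 and a median over all genes of -0.21. Without VCP TG sham replicate 3, 0 of 9 were below 0, and 8 of 9 members changed sign under some alternative. In this comparison 0.772% of genes passed (120 genes, 119 of them higher), 3.35% had all TAC libraries above all sham libraries and 0.676% the reverse. The share that passed rested on single libraries, with 1 to 753 genes when each was left out.

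The difference between the 2 genotypes in their response to TAC was tested as an interaction within the 2-week table. The largest were Adra1a (1.01 ± 0.45), Adra1b (0.76 ± 0.41), Ednrb (0.76 ± 0.42), Adcy6 (0.74 ± 0.58) and Adcy5 (0.66 ± 0.48). Each of these had a negative response in WT. In VCP TG the responses were 0.16 for Adra1a, 0.28 for Adra1b, -0.05 for Ednrb and for Adcy6, and -0.04 for Adcy5. No difference in response passed: the unadjusted limma p of Adra1a was 0.0373 and its limma adjusted p 0.872. Without VCP TG sham replicate 4 the differences in response were 0.76 for Adra1a, 0.52 for Adra1b and for Ednrb, 0.24 for Adcy5 and 0.20 for Adcy6. The members' median then went from 0.66 to 0.20, while that of all genes went from 0.22 to -0.0070. In the fit as reported, Adrb1, Agtr1a, Ace and Ednra lay between -0.17 and 0.42. Over all genes tested the median in that fit was 0.22 and 0.00644% passed (1 gene). The responses of the genotypes are thus not shown to differ for any member, and the VCP TG sham libraries enter this contrast, the sham comparison and the VCP TG response alike, as the WT sham libraries enter theirs.

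**Figure D3:**
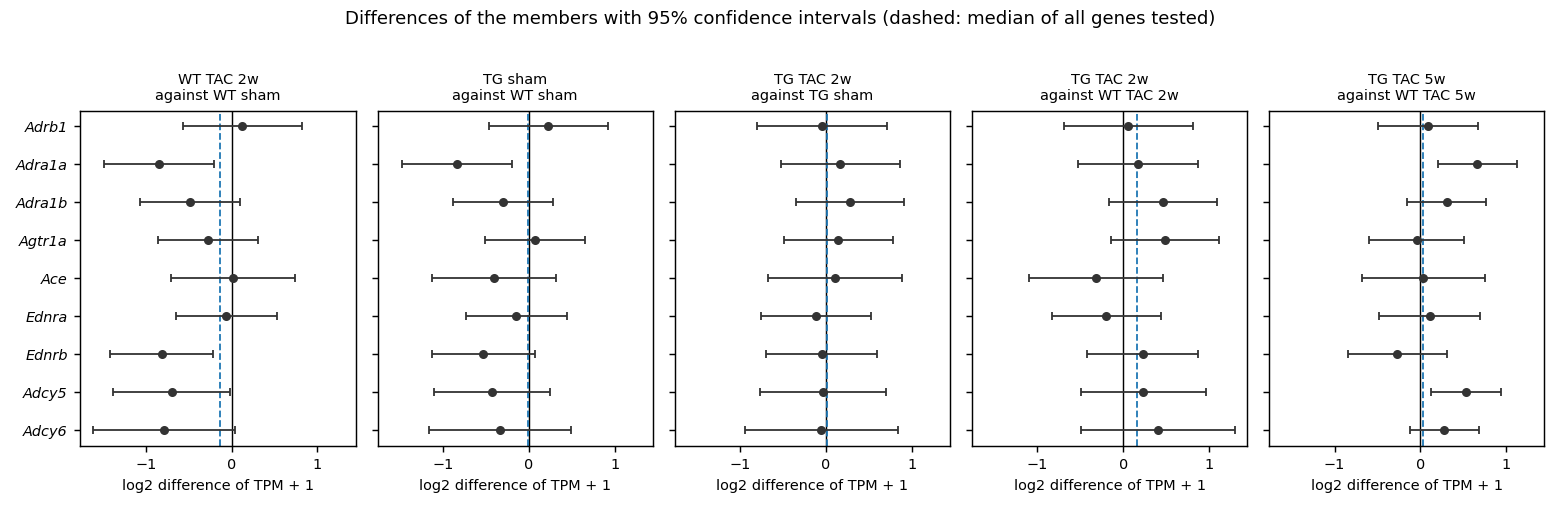
Log2 difference of TPM + 1 (horizontal axis) of each member in the 5 comparisons of pairs of groups, with 95% confidence intervals from limma; the dashed line is the median of all genes tested. In the WT TAC panel Adra1a, Ednrb, Adcy5 and Adcy6 lie between -0.85 and -0.70, and in the VCP TG TAC panel all 9 lie between -0.12 and 0.28.

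Under load, VCP TG hearts were compared with WT hearts at the same time point. At 2 weeks of TAC, Agtr1a stood at 7.38, 8.25 and 8.63 TPM in VCP TG, above all 4 WT TAC libraries, whose highest was 6.19 TPM. The Agtr1a log2 difference was 0.49 ± 0.30 (limma adjusted p = 0.738). Adcy6 stood at 15.1, 16.2 and 18.2 TPM in VCP TG against 9.31 to 13.7 TPM in WT, again without overlap (0.41 ± 0.43, limma adjusted p = 0.980). Adra1b, at 4.96, 5.55 and 6.66 TPM against 2.89 to 5.35 TPM, overlapped by its lowest library (0.47 ± 0.30). Adrb1, Adra1a, Ace, Ednra, Ednrb and Adcy5 lay between -0.31 and 0.23. These 2 of 9 members without overlap stand beside 19% of all genes with all VCP TG libraries higher and 2.78% with all lower, and beside a median over all genes of 0.16. The mitochondrial share was 55.5 to 60.9% in the WT and 40.2 to 51.6% in the VCP TG libraries. The receptor-gene level separated the groups as well, and with it as a covariate the members' median was 0.05, with 4 of 9 below 0. With TPM scaled to nuclear protein-coding genes that median was -0.08, the members' median went from 0.23 to -0.11, and 6 of 9 lay below 0 in place of 2. Agtr1a and Adcy6 kept values above 0 at that scaling (0.16 and 0.04). In the fit as reported 0.0901% of genes passed (14 genes).

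At 5 weeks of TAC, Adra1a and Adcy5 had higher values in VCP TG than in WT. Adra1a stood at 13.2, 11.5 and 12.1 TPM in VCP TG and at 5.91, 6.40, 10.6 and 7.29 TPM in WT. Adcy5 stood at 7.18, 8.43 and 7.23 TPM in VCP TG and at 4.86, 4.73, 6.29 and 4.04 TPM in WT. For each gene all 3 VCP TG libraries lay above all 4 WT libraries, including VCP TG replicate 3, whose Vcp level went against its label, as did those of WT replicates 2 and 3, the latter holding the highest WT value of both genes. Without these 3 libraries the log2 differences were 0.82 for Adra1a and 0.69 for Adcy5. The means were 1.63-fold and 1.53-fold those of WT, and the log2 differences 0.66 ± 0.21 for Adra1a (unadjusted p = 0.00887) and 0.54 ± 0.18 for Adcy5 (unadjusted p = 0.0148). Neither passed over the 13986 genes of the 5-week fit (limma adjusted p = 0.904 for both). They ranked 98 and 169 by p among these genes, of which 628 (4.49%) had an unadjusted limma p under 0.05. The mitochondrial share also separated the groups (53.0 to 55.6% in WT, 47.6 to 50.8% in VCP TG), and with TPM scaled to nuclear protein-coding genes the differences were 0.59 for Adra1a and 0.48 for Adcy5. Macrophage markers summed to 110 to 150 TPM in WT and 82.6 to 106 TPM in VCP TG, without overlap, with 8 of 9 below 0 (median -0.36), and 6 of 8 fibroblast markers were below 0 (median -0.39), against 0.03 over all genes; their part was not tested. All 3 VCP TG libraries being higher was met by 3.4% of genes and all being lower by 1.74%, against 2 and 0 of 9 members; 0.00715% passed (1 gene).

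The remaining members differed less at 5 weeks. Adra1b (4.30, 5.32 and 4.09 TPM against 2.64 to 4.98 TPM) had a log2 difference of 0.31 ± 0.21, and Adcy6 (19.1, 19.8 and 16 TPM against 12.4 to 16.7 TPM) of 0.28 ± 0.18. Ednrb was the member with the lowest value, at -0.27 ± 0.26, with 5.52, 5.99 and 6.83 TPM inside the WT spread of 7.63, 11.2, 8.46 and 4.33 TPM. Adrb1, Agtr1a, Ace and Ednra lay between -0.04 and 0.11. Whether the genotype difference under load itself differed between 5 and 2 weeks was tested across the tables: the values were 0.49 ± 0.43 for Adra1a, 0.30 ± 0.44 for Adcy5, -0.53 ± 0.41 for Agtr1a, -0.49 ± 0.43 for Ednrb, 0.35 ± 0.53 for Ace and 0.31 ± 0.42 for Ednra, with Adrb1, Adra1b and Adcy6 between -0.16 and 0.04, none past the threshold (limma adjusted p = 1.00 for each), with 0.00612% of 16347 genes passing (1 gene). The median over all genes tested in this contrast was -0.16, with 73.4% of them below 0.

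Ratios of related members within a library do not depend on the mitochondrial share. The ratio of Adcy6 to Adcy5 was 2.95 ± 0.59 (SD, n = 4) in WT sham and 2.88 ± 0.23 (n = 4) at 2 weeks of TAC. The log2 difference of that ratio was -0.01 (two-sided exact permutation test, adjusted p = 1.00 over 15 tests). The ratio of Ednrb to Ednra was 0.269, 0.400, 0.410 and 0.829 in WT sham and 0.343, 0.206, 0.231 and 0.197 after TAC, a log2 difference of -0.88 (exact permutation p = 0.0571, adjusted p = 0.429). The ratio of Adra1b to Adra1a was 0.428 ± 0.085 (SD, n = 4) in WT sham and 0.644 ± 0.187 (n = 4) in VCP TG sham, a log2 difference of 0.57 (exact permutation p = 0.0571, adjusted p = 0.429). At 5 weeks of TAC the Adcy6 to Adcy5 ratio was 3.08 ± 0.72 (n = 4) in WT and 2.41 ± 0.23 (n = 3) in VCP TG (exact permutation p = 0.171, adjusted p = 0.429). None of the 15 tests passed after adjustment, where 4 against 4 or 4 against 3 libraries allow no p below 0.0286. A lone ratio at that floor could not pass the adjustment over 15 tests, so not passing does not show that a ratio was unchanged.

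**Figure D4:**
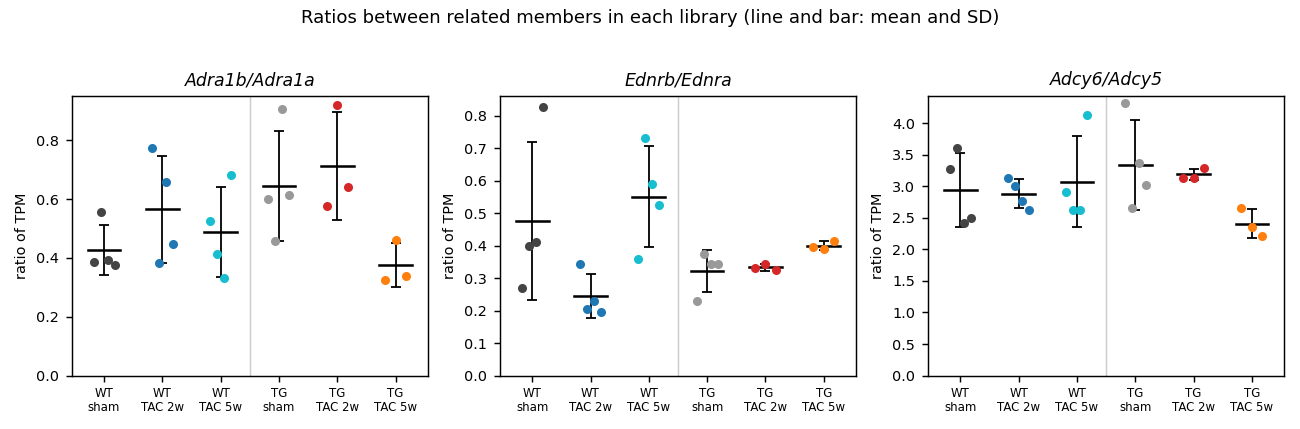
Ratio of TPM (vertical axis from 0) of Adra1b to Adra1a, Ednrb to Ednra and Adcy6 to Adcy5 in each library, by group; lines and bars are mean and SD. The Ednrb to Ednra ratio lies at 0.197 to 0.343 in WT 2 weeks TAC and at 0.269 to 0.829 in WT sham, and the cyclase ratio has nearly the same mean in both.

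Other genes of the same routes were followed as lists. In the comparison of WT TAC with WT sham, 0 genes of any list passed in the 4-group fit, and in the fit of the 2 groups 2 of 14 cyclic AMP effectors and phosphodiesterases, 1 of 8 tested genes of the renin-angiotensin system and 3 of 15 tested genes of Gq signalling passed, all lower, as did 6.31% of all genes in that fit. The cyclic AMP genes were Rapgef3 (Epac1, a cyclic AMP-activated exchange factor), at 16.4 to 42.5 TPM in sham and 11.6 to 15.5 TPM after TAC, and the phosphodiesterase Pde8a, at 11.9 to 16.9 and 7.69 to 10.1 TPM. The Gq genes were the IP3 receptor Itpr2 (21.3 to 29.9 TPM in sham, 10.9 to 16.7 TPM after TAC), the kinase Prkce (9.14 to 12.2 and 3.89 to 7.13 TPM) and the phospholipase Plcb1 (7.94 to 9.48 and 4.76 to 6.12 TPM). Mas1, the receptor for angiotensin 1-7, stood at 1.83 to 3.9 TPM in sham and 0.472 to 1.48 TPM after TAC. Their log2 differences were -1.24 ± 0.27 for Rapgef3, -0.67 ± 0.17 for Pde8a, -0.90 ± 0.17 for Itpr2, -0.76 ± 0.19 for Prkce, -0.58 ± 0.15 for Plcb1 and -0.90 ± 0.23 for Mas1. The list medians were -0.39 for cyclic AMP effectors, -0.40 for Gq signalling, -0.37 for the renin-angiotensin system, -0.23 for the other cyclases and -0.16 for beta receptors and G proteins and 0.08 for endothelin ligands and converting enzymes (1 of 3 below 0), against -0.13 over all genes.

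**Figure D5:**
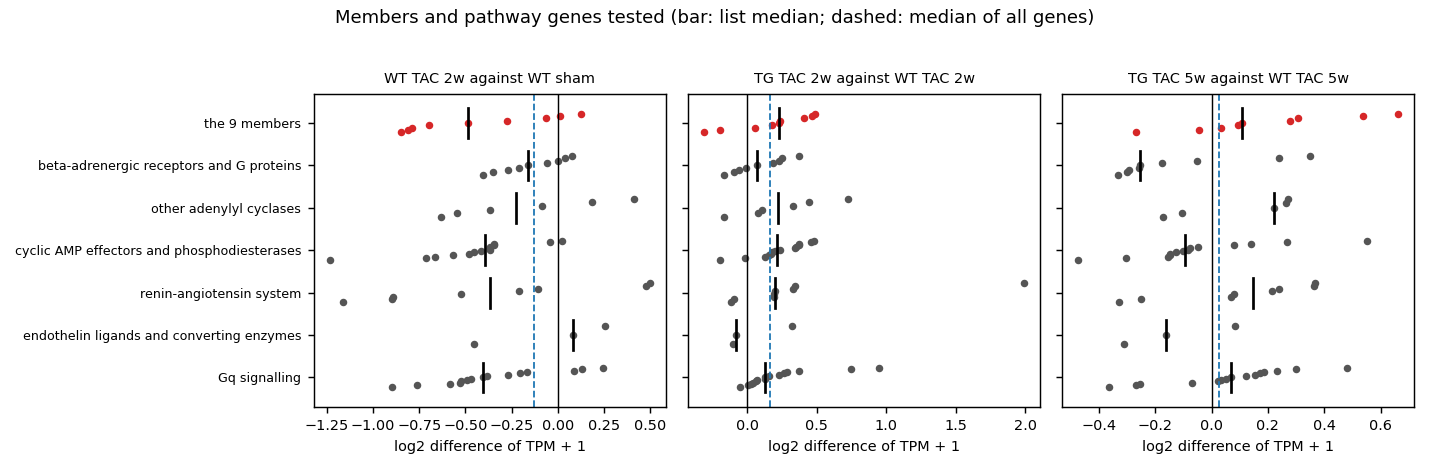
Log2 differences of TPM + 1 (horizontal axis) of the 9 members (red) and of the tested genes of 6 pathway lists (grey, vertical axis) in 3 comparisons; bars are list medians and the dashed line is the median of all genes tested. In the WT TAC panel the medians of the members, the cyclic AMP list and the Gq list lie at -0.48, -0.39 and -0.40.

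Ligands and enzymes around the receptors were mostly at trace level. Ren1 (renin) had a median of 1.37 TPM over all libraries and Edn1 (endothelin-1) of 1.18 TPM, while Ece1, the endothelin converting enzyme, had 38.8 TPM. Agt (angiotensinogen) stood at 4.76 to 5.39 TPM in the 3 VCP TG hearts at 2 weeks of TAC and at 0.0699 to 2.53 TPM in the 4 WT hearts, without overlap. All VCP TG libraries being higher was met by 19% of all genes in that comparison. The Agt log2 difference of 1.99 ± 0.67 did not pass (limma adjusted p = 0.260), and at 5 weeks the groups overlapped (0.546 to 5.69 TPM in WT, 1.01 to 6.70 TPM in VCP TG). Other receptor types were scarce: Adra1d had a median of 0.656 TPM over all libraries, Agtr1b of 0.296 TPM and Agtr2 of 0.0352 TPM, with Agtr2 listed at 0 in 6 libraries. The receptor kinases Grk2 and Grk5 had medians of 9.96 and 5.40 TPM, and their WT TAC differences of -0.41 ± 0.36 and -0.21 ± 0.31 did not pass. Among the other cyclases Adcy3 (6.09 TPM), Adcy4 (4.69 TPM) and Adcy9 (3.70 TPM) had the highest medians, each below that of Adcy6 (16.4 TPM). Adcy9 alone of these had every WT TAC library (1.87 to 3.64 TPM) below every WT sham library (3.76 to 5.50 TPM), a pattern met by 13.7% of all genes. Adcy7 had a median of 1.92 TPM and Adcy10 of 1.03 TPM, and Adcy1, Adcy2 and Adcy8 of 0.133 to 0.238 TPM.

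Most pairs of members had a correlation above 0 across the 15 libraries of the 2-week table. The Pearson correlation of log2(TPM + 1) was above 0 for 35 of 36 pairs, with a median of 0.566, and highest for Adcy5 with Adcy6 (0.948). Over the 7 libraries of the 5-week table the median was 0.0456 and the range -0.883 to 0.882, with Adcy5 and Adcy6 at 0.673. These are descriptions, since the libraries share composition, and the VCP TG sham library with the highest mitochondrial share was low in all 9. The same values over all pairs of genes were not drawn up, so the correlations are not shown to be particular to the members. Among 7698 genes with a mean of at least 5 TPM, those most like Adcy5 over the 15 libraries were Hdgfl2 (0.985), Pttg1ip (0.982) and Sugp2 (0.980), with 0.490, 0.405 and 0.679 over the 7. Those most like Adcy6 were Akap8l (0.975), Hnrnpul2 (0.975) and Zc3h18 (0.974), with 0.758, -0.361 and 0.518 over the 7. Ednrb was most like Adamts9 (0.965), Jmjd1c (0.959) and Plxna2 (0.956), with 0.891, 0.478 and 0.455 over the 7. Adra1a was most like Mrap (0.932), Magix (0.930) and Slc25a34 (0.927), with 0.0204, 0.300 and 0.638. Adra1b was most like Tbc1d16 (0.916), Ipo13 (0.910) and Fitm2 (0.908), with 0.731, 0.689 and 0.453 over the 7. Adrb1 was most like Pcmtd1 (0.944), Ap1ar (0.941) and Hdac2 (0.933), with 0.526, 0.506 and 0.338. Agtr1a was most like Cops6 (0.940), Mrps10 (0.906) and Hopx (0.902), with 0.0299, -0.470 and 0.324. Ace was most like Plekha3 (0.945), Frmd4b (0.903) and Tgfbr2 (0.901), which had 0.848, 0.643 and 0.783 over the 7, and Ednra like Nr2c2 (0.906), Ier3 (0.904) and Pmm2 (0.902), which had 0.271, -0.277 and 0.160.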

How the data were processed

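The deposited tables hold TPM per gene and library, made by the authors. Trimmomatic 0.35, kallisto 0.43.1, STAR 2.5.4b, DESeq2 and GRCm38 are named, without a role, per the submitters' processing notes; RNA was extracted with Qiagen miRNeasy and libraries were made with TruSeq Stranded mRNA, per the labels' protocols. TPM is not a count, so the depth behind each value is unknown. Of 30735 gene identifiers 29995 matched GENCODE M21.

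Differences were fitted with limma 3.58.1 (R 4.3.3) on log2(TPM + 1), with intensity trend and robust variance, over genes of at least 1 TPM in 3 or more libraries: the 4 groups of the 2-week table together, the 2 of the 5-week table, and all 6 for the time difference. P-values were adjusted by Benjamini-Hochberg over all genes, with a threshold of 0.05; the code was tested on simulated data. Ratios were compared with exact permutation tests over libraries. No 2 libraries were identical (highest correlation 0.983). Each member is named in every comparison; of pathway lists, up to 4 genes that passed are named, with the ligand, enzyme and receptor genes given for their levels and, per member, the 3 most correlated genes. The levels of 2 genes of the lists are not reported here. The members and lists were chosen with earlier results of these data known. The sham comparison of genotypes was the only one in which every pair of same-numbered libraries had a correlation above 0 (0.11 to 0.26). For the Vcp check, TPM was scaled to the mean nuclear protein-coding total, with a cut at 90 TPM, a scale settled after the values were seen. Alternatives were another pseudocount (0.5), no filter, 2 other scalings, weights per group, 2 groups alone, the replicate block, a covariate from 1657 olfactory and vomeronasal receptor genes, and leaving out libraries.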

Additional observations from a re-analysis of the deposited data

How the results depend on the processing

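Adra1a, Adra1b, Agtr1a, Ednrb, Adcy5 and Adcy6 kept their direction under all 18 alternatives in the comparison of WT TAC with WT sham. Depth could not be weighed, because the values are TPM. The members near 0 turned: Ednra was 0.14 with quantile normalization, and Ace was -0.14 without the atrial-rich libraries, -0.14 without those with Vcp against the label and -0.32 with the receptor-gene covariate. Leaving out single libraries gave -0.14 to 0.21 for Ace, -0.14 to 0.024 for Ednra, -0.18 to 0.40 for Adrb1 and, between the sham groups, -0.68 to 0.21 for Adcy6. For VCP TG TAC against sham it gave -0.46 to 0.26 for Adcy5 and -0.59 to 0.29 for Adcy6, and without the libraries with Vcp against the label these were 0.068 and 0.20. It gave -0.10 to 0.091 for the Adcy6 to Adcy5 ratio in WT, and in VCP TG hearts -0.039 to 0.34 for Adra1b to Adra1a, -0.089 to 0.15 for Ednrb to Ednra and -0.15 to 0.087 for Adcy6 to Adcy5.

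For WT TAC against sham (0 genes) the counts of genes past the threshold were 7 rescaled to nuclear protein-coding genes, 2 with quantile normalization, 991 with weights per group, 1202 without the atrial-rich libraries, 1 with the covariate, 964 with the 2 groups alone, and 0 to 1 leaving out single libraries. Between sham groups (0) they were 2 without the libraries with Vcp against the label, 2 with the 2 groups alone and 0 to 1 leaving out libraries. For VCP TG TAC against sham (120) they were 79 at a pseudocount of 0.5, 1846 without a filter, 227 rescaled, 1 with weights, 719 without atrial-rich libraries, 17 without those with Vcp against the label, 0 with the covariate, 53 with the 2 groups alone and 1 to 753 leaving out libraries. Between genotypes at 2 weeks of TAC (14) they were 7, 634, 23, 1488, 640, 9, 1 and 8 under the same settings, 9 with quantile normalization and 1 to 15 leaving out libraries. At 5 weeks (1) they were 0 without the libraries with Vcp against the label and 0 to 3 leaving out libraries. For the difference in response (1) they were 0 at a pseudocount of 0.5, 24 without a filter, 4 rescaled, 2 with quantile normalization, 0 with weights, 0 without atrial-rich libraries and 0 to 4 leaving out libraries. For the difference between times (1) they were 6 without a filter, 0 without atrial-rich libraries, 0 without those with Vcp against the label and 1 to 2 leaving out libraries. The cause of these changes was not tested.

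With the replicate number as a block, 2 genes passed for WT TAC against sham, 0 between sham groups, 102 for VCP TG TAC against sham, 5 between genotypes at 2 weeks, 0 at 5 weeks, 0 for the difference in response and 1 between times, and no member changed its call. Same-numbered libraries had correlations of -0.23 to 0.16 outside the sham comparison, with both signs in each comparison, so a pairing is not shown there. At 5 weeks no library was atrial-rich and the 2 groups alone are the fit as reported, so those alternatives gave no value there.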
